A study of Mus musculus with 3 samples.

Results

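S100a6, S100a10, S100a11, Anxa1, Anxa2, Anxa3 and Anxa5 are 3 S100 genes and 4 annexin genes, and their levels were followed here across 4 classes of cells from adult mouse retina. They are 7 of the 24 S100 and annexin genes, and of the 18478 genes, in the deposited count table. They were selected on their levels in Igfbp2-high against Igfbp2-low cells in these same counts, so that contrast is described for them, with no p-value, and their count of calls there is printed only beside that of all genes. The classes are set by the insulin-like growth factor binding protein gene Igfbp2 and by 4 cell cycle genes. A cell was Igfbp2-high at 5 or more Igfbp2 counts per 10000 of its own counts and Igfbp2-low below 1. It was cycling when Top2a, Mki67, Cdk1 and Ccnb1 together had 2 or more counts and non-cycling at 0.

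The study sorted red fluorescent (tdTomato-positive) cells from retinas of adult mice that carried Glast-CreERT+/tg together with Yap5SA+/tg and the reporter ROSA26R-tdTomato+/tg, and sequenced them in 3 runs on 10X Chromium droplets. Tamoxifen turns on Cre in cells that express the glial transporter gene Glast, which starts both tdTomato and Yap5SA, a form of the co-activator YAP that the Hippo kinases do not restrain. NMDA, a glutamate receptor agonist that is toxic to retinal neurons, was then given, and the cells were taken 2 days later. All 3 runs carry the same genotype, tamoxifen and NMDA, so no control retina is compared here and each comparison sets classes of cells of the same run against each other. Glast is active in Müller glia, the radial glia of the retina, and in astrocytes, and the reporter marks either. The labels do not say that the runs are separate animals, so every p-value measures the spread between runs, which may be technical.

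S100 proteins are small calcium sensors that change shape on binding calcium and then bind partner proteins, and annexins are proteins that bind acidic phospholipids of membranes when calcium rises. Pairs of them meet: S100A10 holds annexin A2 in a complex that binds plasminogen and tissue plasminogen activator at the cell surface, and S100A11 binds annexin A1. Annexins and S100A10 and S100A11 are known for their part in resealing torn plasma membranes. YAP has no DNA-binding domain and acts through TEAD factors, often at sites shared with AP-1 factors.

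The promoters of S100a11, Anxa2 and Anxa1 are shown because they hold a letter match to the sites of these factors. The windows are the 250 bases before the RefSeq start in GRCm38.p6 (mm10), read 5′ to 3′ on the gene's strand, with matches in capitals. S100a11 lies at chr3:93520246-93520495 on the plus strand, Anxa2 at chr9:69453433-69453682 on the plus strand and Anxa1 at chr19:20390672-20390921 on the minus strand.
S100a11: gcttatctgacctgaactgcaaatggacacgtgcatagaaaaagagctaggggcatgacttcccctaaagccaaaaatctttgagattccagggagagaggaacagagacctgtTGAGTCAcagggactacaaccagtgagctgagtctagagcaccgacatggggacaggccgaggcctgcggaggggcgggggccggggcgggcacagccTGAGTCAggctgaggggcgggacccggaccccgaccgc
Anxa2: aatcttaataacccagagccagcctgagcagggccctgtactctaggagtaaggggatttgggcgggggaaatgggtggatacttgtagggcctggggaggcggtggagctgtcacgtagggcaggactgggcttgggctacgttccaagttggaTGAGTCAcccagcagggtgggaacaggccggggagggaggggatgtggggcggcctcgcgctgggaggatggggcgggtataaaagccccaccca
Anxa1: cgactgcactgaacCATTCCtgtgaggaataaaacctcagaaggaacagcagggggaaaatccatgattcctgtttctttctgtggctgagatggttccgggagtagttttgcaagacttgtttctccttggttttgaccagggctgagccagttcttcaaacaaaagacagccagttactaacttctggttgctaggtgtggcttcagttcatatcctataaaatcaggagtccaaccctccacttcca

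The capitals in S100a11 and Anxa2 are the AP-1 letters TGANTCA, which begin 136 and 38 bases upstream of the S100a11 start and 95 bases upstream of the Anxa2 start. Those in Anxa1 are the TEAD letters GGAATG or CATTCC, 236 bases upstream. Both strands were searched, and no AP-1 match overlapped a TEAD match in these windows. Of all 32851 RefSeq promoter windows of this length, 6.749% held the AP-1 letters and 12.64% the TEAD letters. Of the 5 members with a window, 2 held the AP-1 letters and 1 the TEAD letters, while the S100a6 and Anxa5 windows held neither. A match is a description of letters and no evidence of binding. By the GENCODE M21 annotation of the same build, S100a6, S100a10, S100a11 and Anxa5 are on chromosome 3, Anxa2 on chromosome 9, Anxa3 on chromosome 5 and Anxa1 on chromosome 19, and all are protein-coding genes. S100a11 also has a processed pseudogene on chromosome 12, and its reads may be split between them.

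Of 24695 cells, 24672 were kept, with 94858762, 122888236 and 97032672 unique molecular identifiers (UMIs, the counts used here) in runs 1, 2 and 3 before that filter. The Igfbp2-high cycling class held 4961 cells, the Igfbp2-high non-cycling class 1126, the Igfbp2-low cycling class 286 and the Igfbp2-low non-cycling class 13045, and 5254 cells were in none. Depth differed between classes: the median cell had 20985.5 to 23815.5 UMIs per run in Igfbp2-high cycling cells, 13579 to 15364 in Igfbp2-high non-cycling, 11767 to 14593.5 in Igfbp2-low cycling and 8454 to 10221.5 in Igfbp2-low non-cycling cells. Levels are therefore given as counts per 1000000 UMIs (CPM), the share of a class's RNA, and where the picture differs also as UMIs per cell. Of the 15 Müller glia markers none was at 0 in any class, and their summed level was 12797 to 15314 CPM in Igfbp2-high cycling, 20388 to 24279 in Igfbp2-high non-cycling, 19491 to 24914 in Igfbp2-low cycling and 35214 to 41912 in Igfbp2-low non-cycling cells. Clustering named 20618 cells (83.57%) Müller glia-like, 254 astrocyte-like and 76 microglia and macrophage-like, and left 3724 unnamed. Astrocyte-like cells made up 12.4%, 16.8% and 17.8% of Igfbp2-high non-cycling cells in runs 1, 2 and 3, against at most 0.693% of Igfbp2-high cycling cells. Microglia-like cells made up 18.3%, 6.67% and 2.27% of Igfbp2-low cycling cells. The unnamed clusters were uneven between runs as well, with 32.6%, 20.5% and 4.28% of Igfbp2-low non-cycling cells. Values in Müller glia-like cells alone are given beside the log2 changes. They leave out the unnamed clusters as well as other cell types. The 2 largest unnamed clusters, of 1332 and 1122 cells, had 15 and 13 of the 15 Müller markers at 100 CPM. They came mostly from run 1 and from run 2. The ratios of partners, the steps over the cycle genes and the relations between members over cells are of all cells of a class, and the part of the other cell types in them was not tested.

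**Figure D1:**
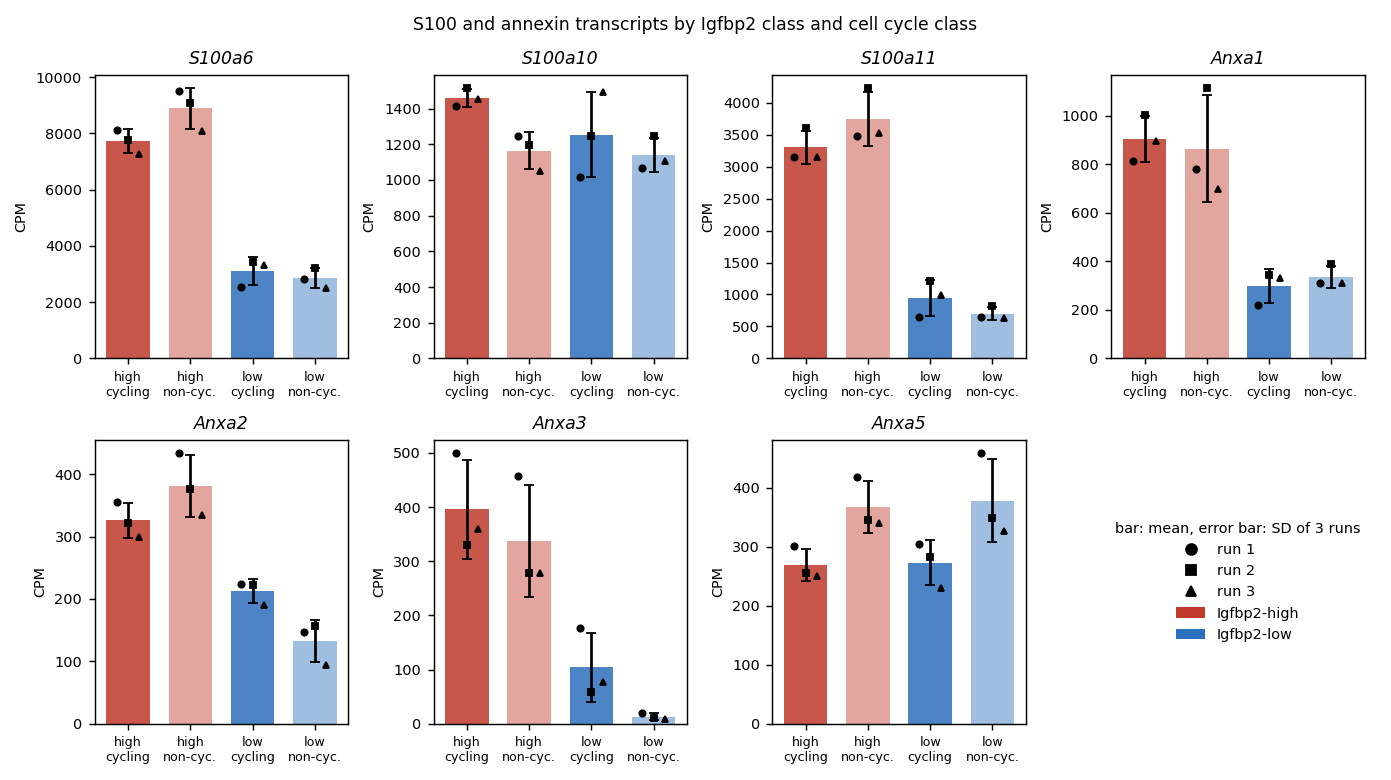
Level of the 7 members in each class, in CPM (vertical axis of each panel), with bars for the mean of 3 runs, error bars for the SD and a marker for each run. S100a6 and S100a11 stand above the Igfbp2-low classes in both Igfbp2-high classes, and Anxa5 is lower in both cycling classes than in the non-cycling ones.

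S100a6, also called calcyclin, is a calcium sensor that binds the partner Cacybp and was the member with the most UMIs. Its level was 8137, 7758 and 7275 CPM in Igfbp2-high cycling cells of runs 1, 2 and 3 and 9496, 9088 and 8093 CPM in Igfbp2-high non-cycling cells. In Igfbp2-low cells it was 2523, 3434 and 3328 CPM when cycling and 2831, 3205 and 2499 CPM when not. Every Igfbp2-high value was above every Igfbp2-low value, and the 2 Igfbp2-low classes overlapped. The log2 change between Igfbp2-high and Igfbp2-low cells was 1.41 (SE 0.11) among cycling cells, or 2.66-fold, and 1.69 (SE 0.11) among non-cycling cells, or 3.23-fold, and in Müller glia-like cells alone it was 1.28 and 1.97. Single cells were spread widely inside a class: in run 1 the 10th and 90th percentiles were 25.5 and 169 per 10000 UMIs in Igfbp2-high non-cycling cells, against 10.6 and 46.4 in Igfbp2-low non-cycling cells.

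S100a11 is the S100 protein that binds annexin A1. Counts stood at 3154, 3602 and 3158 CPM in Igfbp2-high cycling cells, and at 3472, 4229.85 and 3525 CPM in Igfbp2-high non-cycling cells. Igfbp2-low cells had 652, 1213 and 989 CPM when cycling and 646, 818 and 630.2 CPM when not. Again no Igfbp2-high run came near an Igfbp2-low run. The difference was 1.91 (SE 0.11) on the log2 scale among cycling cells and 2.47 (SE 0.11) among non-cycling cells, where the fold was 5.72, 5.29 and 5.63 in the 3 runs, and in Müller glia-like cells alone it was 1.73 and 2.72. Among cycling cells the fold was 5.20 in run 1, 3.20 in run 2 and 3.33 in run 3. Microglia-like cells, which had 204 CPM of S100a11 in run 1, were 18.3% of the Igfbp2-low cycling class in that run. S100a11 in Müller glia-like cells alone was at 3249.8, 3675 and 3229 CPM in Igfbp2-high cycling cells, against 859, 1393 and 1011 CPM in Igfbp2-low cycling cells. The median Igfbp2-high cell had 31.0 to 35.5 S100a11 UMIs per 10000 when cycling and 33.0 to 41.5 when not, and the median Igfbp2-low cell 5.19 to 7.68 when cycling and 5.52 to 7.46 when not.

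S100a10, or p11, is the S100 protein that has lost calcium binding and sits in the complex with annexin A2. In Igfbp2-high cells it had 1413, 1515 and 1451 CPM when cycling and 1246, 1198 and 1049.85 CPM when not. Igfbp2-low cells had 1018, 1248 and 1493 CPM when cycling and 1067, 1245 and 1106 CPM when not. The Igfbp2-high and Igfbp2-low ranges overlapped, unlike those of S100a6 and S100a11. Its log2 change was 0.315 (SE 0.11) among cycling cells and 0.08 (SE 0.11) among non-cycling cells, and in Müller glia-like cells alone 0.14 and 0.34.

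Anxa1, or lipocortin, is an annexin with an anti-inflammatory role whose N-terminal peptides act on the receptor Fpr2. It stood at 814, 1003 and 897 CPM in Igfbp2-high cycling cells and at 782, 1114 and 698 CPM in Igfbp2-high non-cycling cells. Levels in Igfbp2-low cells were 219.9, 345 and 329.5 CPM when cycling and 312, 387 and 309 CPM when not. The Igfbp2-high classes overlapped, and both lay above all Igfbp2-low values. The log2 change was 1.70 (SE 0.12) among cycling cells, 3.26-fold, and 1.39 (SE 0.11) among non-cycling cells, 2.63-fold, and in Müller glia-like cells alone 1.60 and 1.71.

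Anxa2, the annexin held by S100a10, had 355, 322 and 299.9 CPM in Igfbp2-high cycling cells and 433, 376 and 334 CPM in Igfbp2-high non-cycling cells. Its Igfbp2-low levels were 224, 223 and 190.2 CPM when cycling and 147, 156 and 94.5 CPM when not. Here the 2 Igfbp2-low classes did not overlap, and cycling cells were above non-cycling cells in each run. The log2 change between Igfbp2-high and Igfbp2-low cells was 0.71 (SE 0.11) among cycling cells, 1.64-fold, and 1.58 (SE 0.10) among non-cycling cells, 3.0-fold. Astrocyte-like cells had more Anxa2 than Igfbp2-high Müller glia-like cells, 670.0 against 331 CPM, and in Müller glia-like cells alone the changes were 0.75 among cycling and 1.64 among non-cycling cells.

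Anxa3, an annexin with a less settled role that is described in rat microglia, differed most. It had 499, 329 and 359 CPM in Igfbp2-high cycling cells and 457, 278 and 277.6 CPM in Igfbp2-high non-cycling cells. The Igfbp2-low levels were 176, 58.6 and 77.1 CPM when cycling and 20.5, 10.5 and 8.48 CPM when not. All 4 classes of a run were in the same order in each run, with Igfbp2-low non-cycling cells lowest. Among non-cycling cells the log2 change was 4.77 (SE 0.15), with a fold of 23.7, 27.2 and 32.9 in runs 1, 2 and 3. Counted from the largest increase down, it ranked 161 of 14303 tested genes. Among cycling cells it was 2.11 (SE 0.15), or 4.32-fold. Microglia-like cells also carried Anxa3, at 295 CPM, and in Müller glia-like cells alone the Igfbp2-low cycling level was 60.1, 35.6 and 71.1 CPM and the change 2.91 among cycling and 5.14 among non-cycling cells. The median Igfbp2-high non-cycling cell had 1.98 to 3.67 Anxa3 UMIs per 10000 and the median Igfbp2-low cell 0 in every run. Free RNA in droplets was not measured, and its part in the lowest values was not tested.

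Anxa5, the annexin used to detect phosphatidylserine on dying cells, had 301, 256 and 250.5 CPM in Igfbp2-high cycling cells and 417, 345 and 339 CPM in Igfbp2-high non-cycling cells. Igfbp2-low cells had 305, 283 and 231 CPM when cycling and 458, 348 and 326 CPM when not. Every cycling value was below every non-cycling value, and the Igfbp2 classes overlapped. The log2 change between Igfbp2-high and Igfbp2-low cells was 0.07 (SE 0.07) among cycling cells and 0.01 (SE 0.06) among non-cycling cells, and in Müller glia-like cells alone 0.07 and -0.13.

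Counted with edgeR's quasi-likelihood test at a Benjamini-Hochberg adjusted p under 0.05, 5 of the 7 members were higher in Igfbp2-high non-cycling cells, where 27.8% of all 14303 tested genes were, and 0 were lower, where 29.6% were. In Müller glia-like cells alone the members called higher were 6, beside 29.8% of 13618 genes, and 0 were lower, beside 30.9%. Among cycling cells 6 members were called higher beside 25.5% of genes and 0 lower beside 19.6%, and in Müller glia-like cells alone 5 beside 23.5% and 0 beside 17.4%. At least 2-fold higher in every run were 5 members among non-cycling cells, beside 5.19% of genes, and 4 among cycling cells, beside 3.27%. The members were chosen with this contrast in view, so these counts describe the choice and nothing is read from them. Counted per cell, all changes were larger: the median of all genes moved to 0.52 among non-cycling and 0.51 among cycling cells, against -0.05 and 0.05 by share of RNA. Relative to that per-cell median the non-cycling changes were 4.82 for Anxa3, 2.52 for S100a11, 1.74 for S100a6, 1.63 for Anxa2, 1.45 for Anxa1, 0.13 for S100a10 and 0.06 for Anxa5.

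**Figure D2:**
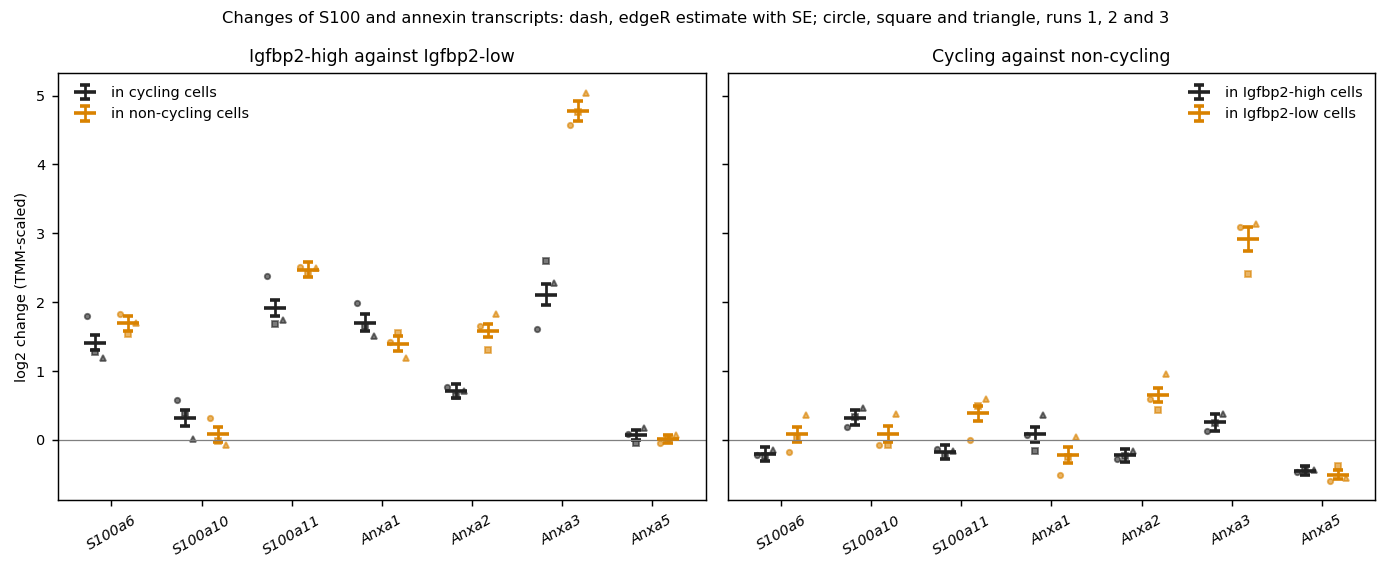
Log2 change of each member (vertical axis, members along the horizontal axis) with its SE and the value of each run as points, for Igfbp2-high against Igfbp2-low cells on the left, cycling in black and non-cycling in orange, and for cycling against non-cycling cells on the right, Igfbp2-high in black and Igfbp2-low in orange. On the left Anxa3 reaches 4.77 among non-cycling and 2.11 among cycling cells. On the right it stands at 2.92 in Igfbp2-low and 0.26 in Igfbp2-high cells.

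The members did not step up at the class limits alone. Among non-cycling Müller glia-like cells parted by Igfbp2 per 10000 UMIs, S100a6 was at 2732 ± 285 CPM (SD, n = 3 runs) in cells without Igfbp2 and at 3135 ± 101, 2918 ± 312, 4311 ± 110, 7842 ± 238, 9756 ± 617, 10347 ± 729 and 11433 ± 1360 CPM in the bins under 1, 1 to 2, 2 to 5, 5 to 10, 10 to 20, 20 to 40 and at least 40. S100a11 over the same bins went through 677, 797, 758, 1398, 2945, 3802, 4628 and 5006 CPM. Both were flat up to 2 Igfbp2 UMIs per 10000 and higher in every bin above. Anxa3 followed the same course from a low base, with 11.6, 19.2, 20.6, 86.7, 232, 320, 426 and 507 CPM, and Anxa1 a shallower one, with 328, 317, 349, 482, 645, 806, 1068 and 1373 CPM. Anxa2 was at 115 CPM without Igfbp2 and at 389 CPM in the highest bin. S100a10 stayed between 1009 and 1353 CPM and Anxa5 between 299 and 386 CPM over the bins of these non-cycling cells.

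Cycling Müller glia-like cells gave a different course. Their S100a6 level was 3251, 3803, 5444, 6310, 7042, 7475, 7963 and 8449 CPM over these bins, so that it was already 5444 CPM at 1 to 2 Igfbp2 UMIs per 10000, where non-cycling cells had 2918. Anxa3 likewise stood at 213 CPM in cycling and 20.6 CPM in non-cycling cells of that bin. Above 10 Igfbp2 UMIs per 10000, S100a6 and S100a11 were lower in cycling than in non-cycling cells of the same bin, with 8449 against 11433 CPM and 3576 against 5006 CPM at the top. Anxa5 in cycling cells was at 278 CPM without Igfbp2, at 202 CPM in the bin of 5 to 10 and at 344 CPM in the highest bin. The cycling bins below 2 held as few as 12 cells in a run. Igfbp2 set the bins and shares each cell's depth with the members, so the courses are given without a test. Just outside the Igfbp2-high limit, at 2 to 5 per 10000, S100a6 was at 6310 CPM in cycling and 4311 CPM in non-cycling cells, and just inside it, at 5 to 10, at 7042 and 7842 CPM.

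**Figure D3:**
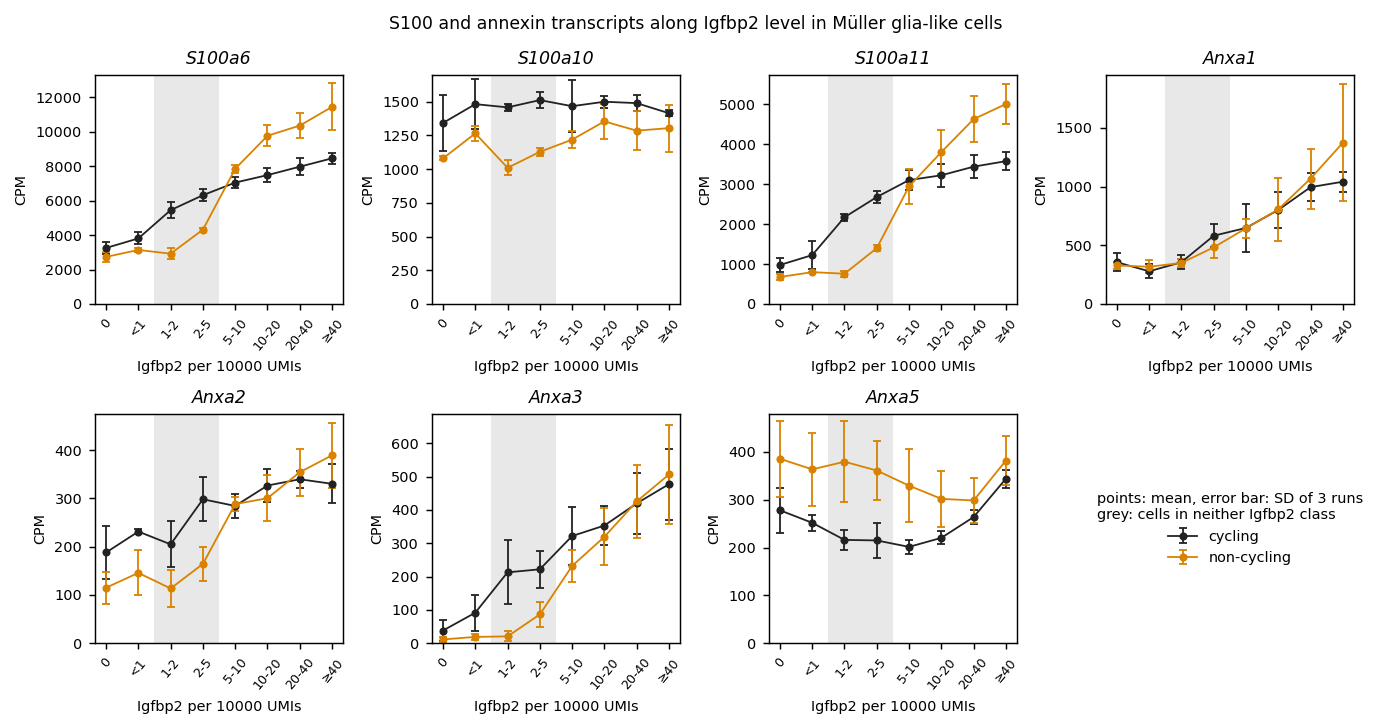
Level of each member in CPM against the Igfbp2 bin, in UMIs per 10000, in Müller glia-like cells, with cycling cells in black, non-cycling cells in orange and error bars for the SD of 3 runs. The grey bands mark bins in neither Igfbp2 class. S100a6, S100a11 and Anxa3 climb over the bins, while S100a10 shows no such climb. Anxa5 in cycling cells falls to 202 CPM at 5 to 10 and is at 344 CPM in the highest bin.

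Beside the limit on the cycle genes, values moved in small steps. In Igfbp2-high cells with 0, 1, 2, 3 to 9 and at least 10 UMIs of the 4 cycle genes, Anxa5 was at 367, 341, 311, 256 and 270.3 CPM and S100a6 at 8892, 8747, 8594, 8263 and 7555 CPM. In Igfbp2-low cells over the same steps Anxa3 was at 13.2, 19.4, 25.5, 148 and 183 CPM and Anxa2 at 133, 141, 151, 212 and 305 CPM. The 158 Igfbp2-low cells at exactly 2 UMIs, just inside the cycling limit, were thus closer to the 1723 cells just outside it than to those with 3 or more.

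Across clusters the members parted in the same way. A set of 6 Müller glia-like clusters averaged 1916 to 3010 CPM of Igfbp2 and 8 averaged 27.3 to 44.5 CPM. S100a6 ran over 6505 to 15736 CPM in the Igfbp2-rich clusters, against 2026 to 3151 CPM in the others. S100a11 had 3057 to 6417 against 554 to 793 CPM, and Anxa3 302 to 459 against 4.98 to 34.8 CPM. Anxa1, with 749.7 to 1168 against 240.2 to 405 CPM, and Anxa2, with 281 to 389 against 66.3 to 197 CPM, did not overlap either. S100a10, with 1269 to 2091 against 678 to 1579 CPM, and Anxa5, with 231 to 342 against 202 to 512 CPM, did. An unnamed cluster of 1122 cells, 1093 of them from run 2, had 40.5 CPM of Igfbp2 and 13 Müller markers at 100 CPM. Its Anxa2, at 343 CPM, was within the Igfbp2-rich range. Its S100a6 (3876 CPM), S100a10 (1826 CPM), S100a11 (1000 CPM) and Anxa1 (463 CPM) were above all 8 Igfbp2-poor clusters. Its Anxa3 (19.9 CPM) and Anxa5 (332 CPM) were inside their range. Another unnamed cluster, of 378 cells, had 1735 CPM of Igfbp2 and 14 Müller markers at 100 CPM. Its S100a6 (6120 CPM), S100a11 (2316 CPM), Anxa1 (615 CPM), Anxa2 (233 CPM) and Anxa3 (246 CPM) lay between the Igfbp2-rich and Igfbp2-poor ranges. Its S100a10 (1294 CPM) and Anxa5 (284 CPM) were inside both. Unnamed clusters of 236 and 39 cells had 352 and 884 CPM of Igfbp2. The highest S100a6, S100a11 and S100a10 levels were in a cluster of 180 cells led by S100a11, Cenpk and S100a6, of which 104, 43 and 33 came from runs 1, 2 and 3 and whose median cell had 5014.5 UMIs. These genes took part in forming the clusters, so no test is given.

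Cluster types set the family against other glia. S100a6 averaged 8222 CPM in Igfbp2-high Müller glia-like cells, 2647 in astrocyte-like, 1252 in microglia and macrophage-like and 2809 in Igfbp2-low Müller glia-like cells. S100a11 had 3519, 1331, 381 and 703 CPM, S100a10 1449, 532, 366 and 1115 CPM, and Anxa1 937, 80.1, 164 and 327 CPM in the same order. Of these types, which leave out the unnamed clusters, Igfbp2-high Müller glia-like cells had the most of these 4 genes and of Anxa3, at 408, 64.6, 295 and 13.7 CPM. Anxa5, at 277, 565, 360.1 and 379 CPM, was highest in astrocyte-like cells. S100b, the classical astrocyte S100 gene, had 0.911 CPM in Igfbp2-high Müller glia-like cells and 1157 CPM in the astrocyte-like cells.

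**Figure D4:**
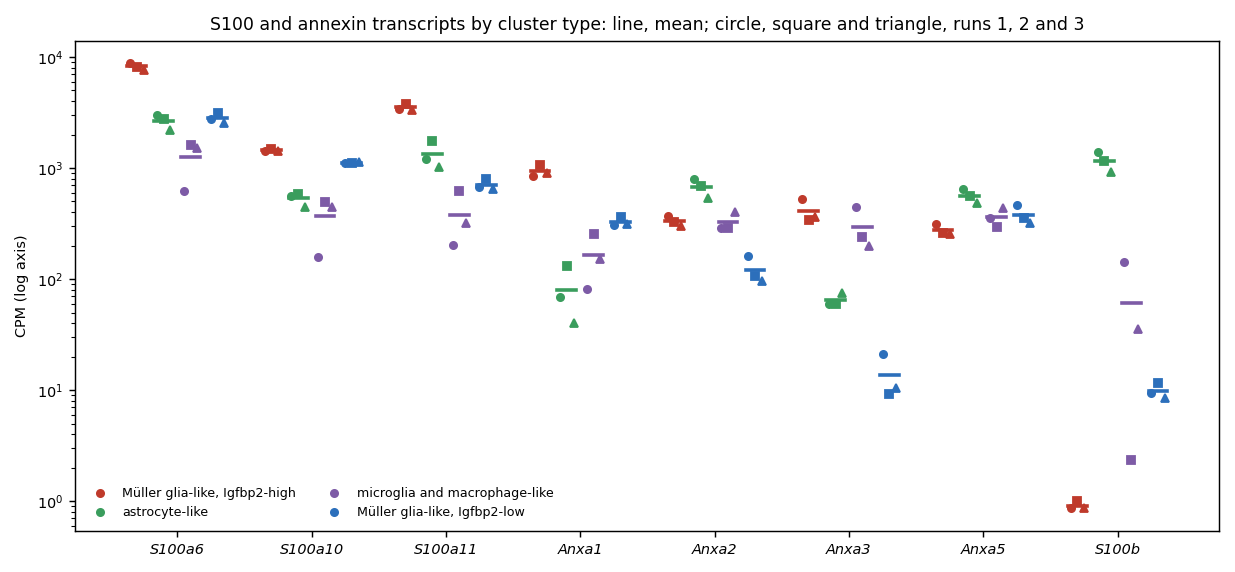
Level of the members and of S100b in CPM on a log axis, by cluster type, as means over the 3 runs. Of the types drawn, which leave out the unnamed clusters, Igfbp2-high Müller glia-like cells have the highest S100a6, S100a10, S100a11, Anxa1 and Anxa3. Astrocyte-like cells have the highest Anxa2, Anxa5 and S100b.

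S100a6 and S100a11 varied together over the 21 clusters of at least 50 cells, with a Pearson r of 0.954 on log2(CPM + 10), and S100a6 and Anxa1 at 0.822, S100a11 and Anxa3 at 0.790 and S100a11 and Anxa1 at 0.762. S100a10 and Anxa2, whose proteins form a complex, had an r of 0.179. These clusters include the astrocyte-like and the microglia and macrophage-like one. Over cells, their r by run was 0.223 to 0.286 in Igfbp2-high cycling and 0.267 to 0.398 in Igfbp2-low non-cycling cells. It was 0.0876 to 0.460 in Igfbp2-low cycling and -0.0814 to -0.0314 in Igfbp2-high non-cycling cells. Cells of the Igfbp2-high non-cycling class showed the S100a6 and S100a11 relation too, at r 0.711 to 0.791 over the runs, against 0.306 to 0.349 in Igfbp2-low non-cycling cells. Among cycling cells the order was the other way, at 0.397 to 0.474 in Igfbp2-high and 0.571 to 0.817 in Igfbp2-low cells. The points share libraries and depth, and no p is given. The genes most like each member over the 21 clusters, among 2736 genes, were Ift43 (r 0.947), Uqcc2 and Rras2 for S100a6, Ngfrap1 (r 0.970), Rras2 and Cfap36 for S100a11, and Thoc7 (r 0.928), Cfdp1 and 1110004E09Rik for S100a10. For the annexins they were Sema3e (r 0.899), Cldn12 and Rwdd1 for Anxa1, Itgb1 (r 0.914), Pfdn4 and Ppa1 for Anxa2, Sdf2l1 (r 0.973), Tpm4 and Lrrc59 for Anxa3 and Pepd (r 0.926), Capns1 and Ndufs3 for Anxa5.

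Binding partners stood in unequal ratios across the classes. S100a10 had 4.51 ± 0.465 UMIs per UMI of Anxa2 in Igfbp2-high cycling cells and 3.07 ± 0.167 in Igfbp2-high non-cycling cells, 5.99 ± 1.69 in Igfbp2-low cycling cells and 8.98 ± 2.39 in Igfbp2-low non-cycling cells (SD, n = 3 runs). S100a11 had 3.66 ± 0.187, 4.43 ± 0.627, 3.16 ± 0.309 and 2.07 ± 0.0368 UMIs per UMI of Anxa1 in the same classes. Igfbp2-high cells thus had less S100a10 per Anxa2 and more S100a11 per Anxa1 than Igfbp2-low cells. The counts are of 3′ tags, so a ratio compares classes and does not give the ratio of molecules.

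Cycling was tested within each Igfbp2 class. The levels of these 4 classes also entered the choice of the members, which was made with earlier results of these data known. The p-values of the members here and in Igfbp2-low cells are therefore no independent test. In Igfbp2-high cells Anxa5 was lower in cycling cells, with a log2 change of -0.45 (SE 0.06, edgeR adjusted p = 4.58e-05) that was -0.46, -0.44 and -0.44 in the 3 runs. In UMIs per cell it was 0.15 (adjusted p = 0.113), where the median of all genes was 0.58, so relative to that median it was -0.43. Its adjusted p ran from 8.26e-20 to 0.113 over the alternatives, and Müller glia-like cells alone gave -0.35. S100a10 was higher in cycling cells by 0.32 (SE 0.11, edgeR adjusted p = 0.0269), at 0.19, 0.33 and 0.47 in the runs. That call was lost under several alternatives. Among them were Müller glia-like cells alone (0.12, adjusted p = 0.243), without astrocyte-like cells (0.13, adjusted p = 0.363), without run 2 (0.32, adjusted p = 0.145) and RLE size factors (0.26, adjusted p = 0.0714). Over all alternatives, including ones not named here, the change went down to 0.07 and the adjusted p ran from 6.38e-06 to 0.504. S100a10 averaged 532 CPM in astrocyte-like cells, which were 12.4% to 17.8% of the non-cycling and at most 0.693% of the cycling Igfbp2-high class.

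S100a6, at -0.20 (SE 0.10, edgeR adjusted p = 0.128), and S100a11, at -0.17 (SE 0.11, edgeR adjusted p = 0.197), did not pass among all cells. Both were called lower in cycling Müller glia-like cells alone, at -0.43 (edgeR adjusted p = 0.000128) and -0.39 (edgeR adjusted p = 0.000467), and both without run 1, at -0.27 (edgeR adjusted p = 0.0150) and -0.27 (edgeR adjusted p = 0.00643). Over all alternatives the adjusted p ran from 1.61e-05 to 0.367 for S100a6 and from 9.82e-05 to 0.517 for S100a11. In UMIs per cell they turned to 0.39 and 0.42, which is -0.19 and -0.16 relative to the median of all genes. Anxa2 (-0.22, edgeR adjusted p = 0.0720), Anxa3 (0.26, edgeR adjusted p = 0.112) and Anxa1 (0.08, edgeR adjusted p = 0.558) did not pass, and Anxa3 was at 0.01 in Müller glia-like cells alone. In all 1 member was called higher beside 24.8% of tested genes and 1 lower beside 23.2%, and in Müller glia-like cells alone 0 beside 22.5% and 3 beside 23.9%.

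Igfbp2-low cells gave another set, under the same limit on the p-values of the members. Anxa3 was higher in cycling than in non-cycling Igfbp2-low cells by 2.92 on the log2 scale (SE 0.17, edgeR adjusted p = 2.35e-08), at 3.10, 2.40 and 3.13 in the runs, and by 2.24 in Müller glia-like cells alone. Anxa2 was higher by 0.65 (SE 0.11, edgeR adjusted p = 0.000324), at 0.60, 0.44 and 0.96. Both calls held under every alternative run, with adjusted p up to 0.000344 for Anxa3 and up to 0.0239 for Anxa2. The alternatives reuse the data on which the members were chosen, so they do not lift that limit. S100a11 was higher by 0.38 (SE 0.11, edgeR adjusted p = 0.0146), but run 1 gave 0.01 where runs 2 and 3 gave 0.49 and 0.60. Its call was lost without run 2 (0.32, adjusted p = 0.148) and without run 3 (0.26, adjusted p = 0.170), the adjusted p otherwise reaching down to 1.32e-11, and Müller glia-like cells alone gave 0.60 (adjusted p = 2.70e-05). Run 1 had 18.3% microglia-like cells in the cycling class. In that run microglia-like cells had 204 CPM of S100a11 and 626 CPM of S100a6.

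Anxa5 was lower in cycling Igfbp2-low cells, at -0.51 (SE 0.07, edgeR adjusted p = 6.06e-05), at -0.60, -0.38 and -0.55 in the runs. Counted per cell it was 0.20 (adjusted p = 0.0665, the highest of its alternatives, the lowest being 1.35e-11), or -0.44 relative to the per-cell median of all genes, 0.64. S100a6 (0.08, edgeR adjusted p = 0.608) and S100a10 (0.09, edgeR adjusted p = 0.592) did not pass among all cells, and in Müller glia-like cells alone they were called higher, at 0.26 (edgeR adjusted p = 0.0157) and 0.31 (edgeR adjusted p = 0.00966). Anxa1 had -0.23 (SE 0.12, edgeR adjusted p = 0.161). The calls were 3 members higher beside 16.8% of genes and 1 lower beside 15.6%, and in Müller glia-like cells alone 5 beside 14.1% and 1 beside 12.4%. The Igfbp2-low cycling class was the smallest, with 93, 105 and 88 cells in runs 1, 2 and 3.

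The Igfbp2 change among cycling cells minus that among non-cycling cells is made of the contrasts on which the members were selected, so it is described with no p-value. For Anxa3 it was -2.66 on the log2 scale (SE 0.21), at -2.96, -2.17 and -2.76 in the runs and -2.23 in Müller glia-like cells alone. For Anxa2 it was -0.87 (SE 0.14), at -0.88, -0.66 and -1.11, and -0.89 in Müller glia-like cells alone. S100a11 had -0.56 (SE 0.15), at -0.14 in run 1 and -0.73 and -0.76 in runs 2 and 3, and -0.99 in Müller glia-like cells alone. The value was below 0 in every run for these 3 genes. S100a6 had -0.28 (SE 0.15) in all cells, likewise below 0 in every run, and -0.68 in Müller glia-like cells alone.

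S100a10 (0.23, SE 0.16), Anxa1 (0.31, SE 0.16) and Anxa5 (0.06, SE 0.09) were above 0 in all cells, and in Müller glia-like cells alone S100a10 and Anxa1 were at -0.19 and -0.12. Of the 7 members 0 were called with a larger change among cycling cells, beside 7.36% of all genes, and 3 with a smaller one, beside 6.98%. With Müller glia-like cells alone these counts were 0 beside 3.56% and 4 beside 5.42%. Nothing is read from these counts. In Müller glia-like cells the order of the 4 classes was plain for Anxa3, at 409 CPM in Igfbp2-high cycling, 392 in Igfbp2-high non-cycling, 55.6 in Igfbp2-low cycling and 12.5 in Igfbp2-low non-cycling cells. S100a11 was at 3384, 4262, 1088 and 690.0 CPM in the same classes. Both had their smaller Igfbp2 change among cycling cells with a higher Igfbp2-low level there, and S100a11 also with a lower Igfbp2-high level.

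Among the other S100 genes 2 of 7 tested were called higher in Igfbp2-high non-cycling cells and 4 lower, beside 27.8% and 29.6% of all genes, with a median log2 change of -0.33 against -0.05 over all genes. In UMIs per cell, where 8016 of the 14303 genes were called higher and 1390 lower, 3 were called higher and 2 lower, with a median of 0.25 against 0.52. S100a1, a calcium sensor of muscle and brain, had 302 ± 27.1 CPM in Igfbp2-high non-cycling cells and 659 ± 59.9 CPM in Igfbp2-low non-cycling cells (SD, n = 3 runs), a change of -1.08 (SE 0.10, edgeR adjusted p = 5.00e-07) by share of RNA and -0.50 per cell. S100a13 was lower as well, at -1.06 (SE 0.08, edgeR adjusted p = 1.05e-07) and -0.49 per cell. S100a16 was lower, at -0.44 (SE 0.08, edgeR adjusted p = 0.000349), but at 0.14 per cell, and S100a4, at -0.33 (SE 0.12, edgeR adjusted p = 0.0285), but at 0.25 per cell and, in Müller glia-like cells alone, -0.22 (edgeR adjusted p = 0.0880). S100a7a, the mouse counterpart of psoriasin, was called higher, with 27.6 ± 4.14 CPM against 1.55 ± 0.480 CPM, a change of 4.20 (SE 0.21, edgeR adjusted p = 8.20e-10), and 4.48 in Müller glia-like cells alone. S100a3 did not pass, at 0.14 (edgeR adjusted p = 0.575).

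S100b turned with the cells counted. Over all cells it had 204, 191 and 177 CPM in Igfbp2-high non-cycling cells, against 9.86, 10.0 and 9.04 CPM in Igfbp2-low non-cycling cells, a change of 4.35 (SE 0.11, edgeR adjusted p = 2.09e-12). In Müller glia-like cells alone it averaged 1.37 against 9.78 CPM, a change of -2.72 (edgeR adjusted p = 8.68e-08), and without astrocyte-like cells -0.48 (edgeR adjusted p = 0.322). Among cycling cells, where astrocyte-like cells were at most 0.693% of the Igfbp2-high class, it was lower, at -1.30 in all cells and -3.28 in Müller glia-like cells. No member changed sign in this way in the non-cycling comparison except Anxa5, at 0.01 in all cells and -0.13 in Müller glia-like cells.

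Of the other annexin genes, beside the same shares of all genes, 1 of 5 tested was called higher in Igfbp2-high non-cycling cells, Anxa11 at 0.81 (SE 0.14, edgeR adjusted p = 0.000186), and 1 lower, Anxa4 at -0.34 (SE 0.08, edgeR adjusted p = 0.00288). In UMIs per cell 4 were higher and 0 lower, where 8016 of 14303 genes were higher and 1390 lower. Anxa4 was then at 0.24, which is -0.28 relative to the per-cell median of all genes, 0.52. Anxa6 had 0.22 (edgeR adjusted p = 0.0547) and Anxa7 0.16 (edgeR adjusted p = 0.290), which was 0.37 (edgeR adjusted p = 0.00106) in Müller glia-like cells alone. Between cycling and non-cycling Igfbp2-high cells by share of RNA 23.2% of all genes were called lower in cycling cells. Of the 5 other annexins 4 were, Anxa4, Anxa6, Anxa7 and Anxa11, with changes of -0.41 to -0.61. Of the 7 other S100 genes 4 were, with S100a1 at -1.06 and S100a16 at -0.87. In Müller glia-like cells alone these were 4 annexins and 3 S100 genes, beside 23.9% of all genes, and S100b was at -0.74 (edgeR adjusted p = 0.121). Per cell, over all cells, 0 annexins and 3 S100 genes were called lower in this comparison, where 974 of 14303 genes were. S100a14, S100a8, S100a9, S100z, S100a2 and Anxa9 were too low to describe, the first 5 with 5 to 42 UMIs in all cells.

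**Figure D5:**
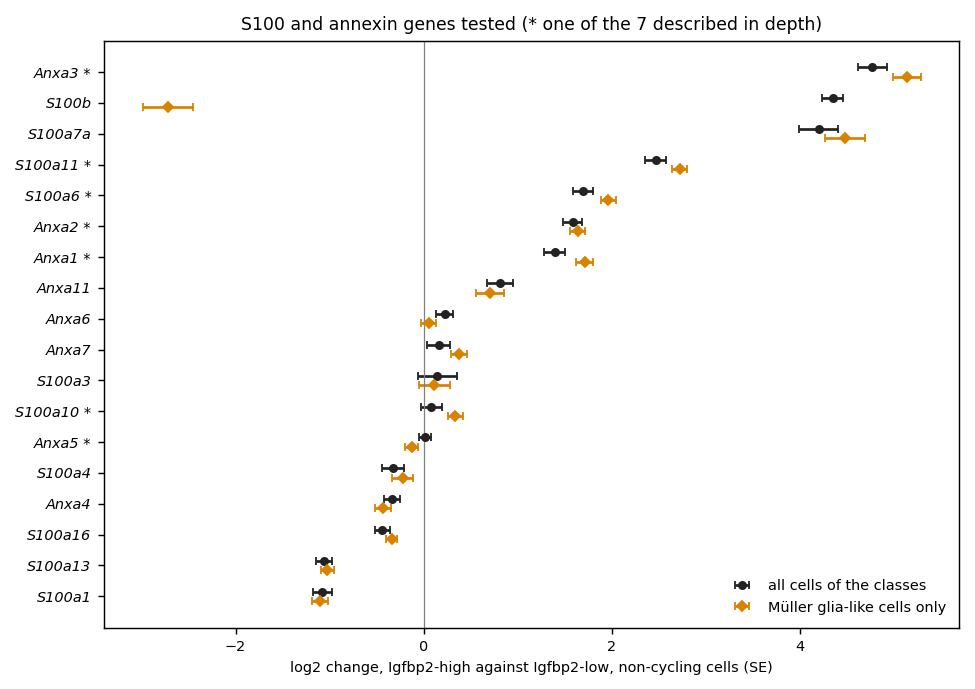
Log2 change between Igfbp2-high and Igfbp2-low non-cycling cells (horizontal axis) of the S100 and annexin genes with its SE, over all cells in black and in Müller glia-like cells alone in orange. S100b stands at 4.35 in all cells and -2.72 in Müller glia-like cells, while Anxa3, S100a7a, S100a11, S100a6, Anxa2 and Anxa1 are to the right in both.

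The partners and receptors of the family were counted in the same fits. Of 11 tested, 7 were called higher in Igfbp2-high non-cycling cells and 1 lower, beside 27.8% and 29.6% of all genes, with a median of 0.44 against -0.05 over all genes, and per cell 11 were higher and 0 lower, where 8016 of 14303 genes were higher. Ahnak, the giant scaffold that S100a10 and annexin A2 bind, was higher by 1.99 (SE 0.09, edgeR adjusted p = 6.69e-10). Cacybp, the partner of S100a6, was higher by 0.92 (SE 0.08, edgeR adjusted p = 4.08e-07) and Tsg101 by 0.36 (SE 0.08, edgeR adjusted p = 0.00233), while Pdcd6, another calcium sensor, was lower, at -0.30 (SE 0.06, edgeR adjusted p = 0.000817) and at 0.27 per cell. Ager, the receptor RAGE for several S100 proteins, was singled out after its values were seen and was higher by 3.18 (SE 0.16, edgeR adjusted p = 1.21e-09) at a mean of 8.30 CPM. Among cycling cells 9 partners were higher and 0 lower, beside 25.5% and 19.6% of all genes. In cycling against non-cycling Igfbp2-high cells 6 were higher and 3 lower, beside 24.8% and 23.2%, with Cacybp at 0.65 (edgeR adjusted p = 1.66e-05), Tsg101 at 0.26 (edgeR adjusted p = 0.0212), Ahnak at -0.40 (edgeR adjusted p = 0.00222) and Sri at -0.17 (edgeR adjusted p = 0.0458), and per cell 9 were higher and 0 lower, where 8708 genes were higher. Tsg101 was at 0.14 (edgeR adjusted p = 0.142) in Müller glia-like cells alone.

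The plasminogen system, which the S100a10 and annexin A2 complex serves, was called in about the shares of all genes: of its 9 tested genes 2 were higher in Igfbp2-high non-cycling cells and 3 lower, beside 27.8% and 29.6%, with a median of 0.07. Serpine2, an inhibitor of serine proteases, was higher by 1.98 (SE 0.50, edgeR adjusted p = 0.00381), and by 1.67 in Müller glia-like cells alone. Among cycling cells it was lower over all cells, at -2.73 (SE 0.43, edgeR adjusted p = 0.000160), and higher in Müller glia-like cells alone, by 1.67 (edgeR adjusted p = 0.00546). Plat, the tissue plasminogen activator, was lower, at -0.77 (SE 0.08, edgeR adjusted p = 1.91e-06) and at -1.22 in Müller glia-like cells alone. Eno1, a glycolytic enzyme that also binds plasminogen at the surface, was lower, at -1.01 (SE 0.08, edgeR adjusted p = 7.27e-08). Per cell 4 were higher and 2 lower, where 8016 of 14303 genes were higher and 1390 lower. Plat, at -0.19 per cell (edgeR adjusted p = 0.0759), was no longer called. Among cycling cells 1 gene was higher and 4 lower, beside 25.5% and 19.6% of all genes. In cycling against non-cycling Igfbp2-high cells Plat was at -0.98 (edgeR adjusted p = 4.03e-07) and Eno1 at -0.41 (edgeR adjusted p = 0.000507). These were 2 of 9 called, both lower, beside 23.2% of all genes lower.

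Plasma membrane repair, in which annexins take part, had 16 tested genes, of which 8 were higher and 4 lower in Igfbp2-high non-cycling cells, beside 27.8% and 29.6% of all genes, with a median of 0.11. Per cell 12 were higher and 0 lower, where 8016 of 14303 genes were higher and 1390 lower. Capn2, the large subunit of a calpain, was higher by 1.64 (SE 0.06, edgeR adjusted p = 7.54e-11) and Ehd1, a membrane remodelling protein, by 1.06 (SE 0.08, edgeR adjusted p = 8.34e-08). Cav1, a caveolin, was lower, at -0.48 (SE 0.08, edgeR adjusted p = 9.74e-05) and Chmp4b, a subunit of the ESCRT-III complex, at -0.47 (SE 0.08, edgeR adjusted p = 0.000132), and per cell these stood at 0.10 and 0.11. Among cycling cells Cav1 was higher in Igfbp2-high cells, by 0.25 (SE 0.08, edgeR adjusted p = 0.0201), but at 0.02 (edgeR adjusted p = 0.809) in Müller glia-like cells alone, and its 2 Igfbp2 changes differed by 0.73 (edgeR adjusted p = 0.000841), or 0.34 (edgeR adjusted p = 0.0206) in Müller glia-like cells. Cycling against non-cycling Igfbp2-high cells had 4 higher and 5 lower, beside 24.8% and 23.2% of all genes, with Capn2 at 0.34 (edgeR adjusted p = 0.000411), Cav1 at 0.21 (edgeR adjusted p = 0.0328), Capns1 at -0.37 (edgeR adjusted p = 9.51e-05) and Chmp2a at -0.45 (edgeR adjusted p = 0.000209). Per cell 13 were higher and 1 lower, where 8708 of 14303 genes were higher and 974 lower. In Müller glia-like cells alone Cav1 was at -0.05 (edgeR adjusted p = 0.480).

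YAP target genes were set beside the members because the mice carry Yap5SA. Of 20 tested, 16 were higher in Igfbp2-high non-cycling cells and 2 lower, beside 27.8% and 29.6% of all genes, with a median of 1.65 against -0.05 over all genes, and 18 higher and 1 lower per cell, where 8016 of 14303 genes were higher. Amotl2, an inhibitor of YAP that YAP itself raises, was higher by 3.09 (SE 0.13, edgeR adjusted p = 1.81e-10), Axl, a receptor kinase, by 1.84 (SE 0.11, edgeR adjusted p = 3.94e-09), Gadd45b, a stress gene, by 0.89 (SE 0.13, edgeR adjusted p = 4.99e-05) and F3, tissue factor, by 0.85 (SE 0.11, edgeR adjusted p = 1.13e-05). In Müller glia-like cells alone F3 was at 0.48, and 16 were higher and 1 lower, beside 29.8% and 30.9% of all genes. Among cycling cells the counts were 16 and 2, beside 25.5% and 19.6%. Within Igfbp2-high cells 4 targets were higher and 8 lower in cycling cells, beside 24.8% and 23.2%, with a median of -0.19. Among the lower ones were F3 at -0.98 (edgeR adjusted p = 3.85e-06), Nuak2 at -0.72 (edgeR adjusted p = 5.98e-05), Gadd45b at -0.46 (edgeR adjusted p = 0.00942) and Crim1 at -0.26 (edgeR adjusted p = 0.0183). Per cell 14 were higher and 4 lower, where 8708 of 14303 genes were higher and 974 lower. For the difference between the Igfbp2 changes 0 of the 20 were called larger among cycling cells and 6 smaller, beside 7.36% and 6.98% of all genes, and in Müller glia-like cells alone 0 and 9, beside 3.56% and 5.42%. The other S100 genes had 0 and 2, of which S100a16 was at -0.39 (edgeR adjusted p = 0.0364) and S100b at -5.65, or -0.56 (edgeR adjusted p = 0.526) in Müller glia-like cells alone. The repair and YAP target lists share Myof, and each list is described by its counts alone.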

How the data were processed

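UMI counts by gene and cell were deposited as 1 table. The authors also deposited natural log values for 13511 cells (54.7%), which equalled ln(1 + 10000 × count / total) to within 5.00e-07 and served only to mark an alternative set of cells. The submitters' processing notes name Cell Ranger, Seurat 2.3.4 and mm10 without their roles, and the Cell Ranger version is not given in the sources used here. Libraries were 10X Chromium 3′ v2, per the labels' protocols.

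A cell was dropped below 500 detected genes or above 20% mitochondrial UMIs, which removed 23. No doublet caller was run and doublets were kept, which bears on cells of high totals such as cycling ones. Pairs of runs shared 83 to 108 barcodes. Clusters came from 2000 variable genes, 30 principal components, 15 neighbours and resolution 1.0 (Python 3.11.15 with pandas 2.3.3, scanpy 1.11.5, scipy 1.17.1, igraph 0.11.9 and numpy 2.4.6), which gave 23 clusters. A cluster took another cell type's name with at least 3 of its markers at 50 CPM and 4-fold over the other cells (10 CPM added) and a Müller marker ratio of at most 0.5. It was Müller glia-like with no other type at 3 such markers and at least 5 Müller markers at 100 CPM. In addition its 10 leading genes had to hold no more markers of any other type than of Müller glia. Clusters that met neither rule stayed unnamed, some of them with most Müller markers at 100 CPM.

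The cells of a class in a run were summed to 1 profile, 12 in all. After filterByExpr and TMM scaling these were tested in 1 edgeR 4.0.16 quasi-likelihood fit (limma 3.58.1, R 4.3.3) with the run as a block, Benjamini-Hochberg over all 14303 genes and a threshold of 0.05. The 4 classes of a run come from 1 library, which is what pairs them. The genes that set the classes entered the scaling and were left out of the test. The run values, UMIs per cell and SD are of the sums. Where the summed counts of a run are large, counting error is small beside the spread between runs. The method was tested on simulated data. Figures were drawn with matplotlib 3.10.9.

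Named genes were the members, the other S100 and annexin genes with a mean of at least 5 CPM, up to 4 called genes of each other list by level, and for each member the 3 genes of highest Pearson r. The members and lists were chosen with earlier results of these data known, and the alternative without astrocyte-like cells was added after the data were seen. The other alternatives were RLE size factors, UMIs per cell, no low-count filter, DESeq2 1.42.0, each run left out, no run block, the authors' cells, Müller glia-like cells alone, other Igfbp2 and cycling limits, cells thinned to 3500 UMIs and fits of only the 2 classes compared. A listed gene that the rule names is not reported here.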

Additional observations from a re-analysis of the deposited data

Results flagged for a closer look

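The Igfbp2 change of 3 members was flagged because their interaction term in the edgeR fit passed the threshold, and nothing is read from that flag. S100a6, which was not flagged, was also below 0 in each run, at -0.04, -0.25 and -0.51. For the flagged members the change among cycling cells minus that among non-cycling cells was -2.66 (SE 0.21) for Anxa3, -0.87 (SE 0.14) for Anxa2 and -0.56 (SE 0.15) for S100a11. Each was below 0 in 3 of 3 runs. The members were selected on the contrasts that make up this difference, so it is a description and no p-value is given. Microglia-like cells, at 18.3%, 6.67% and 2.27% of Igfbp2-low cycling cells, carry Anxa3 and Anxa2, and in Müller glia-like cells alone the values were -2.23, -0.89 and -0.99.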

How the results depend on the processing

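The number of genes called was 8207 for Igfbp2-high against Igfbp2-low among non-cycling cells, 6458 among cycling cells, 6868 for cycling against non-cycling in Igfbp2-high cells, 4642 in Igfbp2-low cells and 2051 for the difference between the Igfbp2 changes. Leaving out 1 replicate gave 6530 to 7093, 4469 to 5866, 4959 to 6044, 3297 to 3464 and 559 to 1424, and for the difference it was 973 without replicate 1 and 559 without replicate 2. Cells thinned to 3500 UMIs gave 878 among cycling cells, 4323 in Igfbp2-high, 2730 in Igfbp2-low cells and 907 for the difference. The thinned cells were classed anew, so the classes changed as well as the depth. The Igfbp2-high non-cycling class then held 2077 cells against 1126, and the Igfbp2-low cycling class 173 against 286. The authors' cells gave 3823 among cycling cells and 927 for the difference, a cycling limit of 4 UMIs 3157 among cycling cells, Igfbp2 limits of 10 and 0 2901 in Igfbp2-low cells, and Müller glia-like cells alone 1223 for the difference. In UMIs per cell 7716 genes were called in Igfbp2-low cells, and 98.6% of these were higher, against 51.9% by share of RNA, with 85.2% against 48.4%, 81.9% against 56.6% and 89.9% against 51.7% in the first 3 comparisons and 25.8% against 51.3% for the difference. RLE size factors gave 32.5% for the difference.

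Without the replicate block the difference had 894 calls, and the S100a11 call between cycling and non-cycling Igfbp2-low cells (0.40, edgeR adjusted p = 0.157) and the S100a10 call in Igfbp2-high cells (0.33, edgeR adjusted p = 0.0829) were lost. The differences of Anxa3, Anxa2 and S100a11 were then -2.71, -0.86 and -0.58.

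Of the values of the 7 members under the alternatives, 392 stayed alike. In the 2 Igfbp2 comparisons alike meant within the run SD of the value first given. In the other comparisons it meant the same direction and side of the threshold. In those others 36 came to pass the threshold and 17 fell short, and in the Igfbp2 comparisons 49 moved by more than the run SD. In all 24 turned, counted in the Igfbp2 comparisons only where the value first given had passed. The authors' cells turned S100a10 among cycling cells (-0.053), Anxa1 (-0.22) and Anxa3 (-0.056) in Igfbp2-high cells and the differences of S100a10 (-0.019) and Anxa1 (-0.042). Müller glia-like cells alone turned Anxa1 in Igfbp2-high cells (-0.18) and the differences of S100a10 (-0.19) and Anxa1 (-0.12), and without astrocyte-like cells Anxa1 was -0.17. UMIs per cell turned S100a6 (0.39), S100a11 (0.42), Anxa2 (0.38) and Anxa5 (0.15) in Igfbp2-high cells, Anxa1 (0.48) and Anxa5 (0.20) in Igfbp2-low cells and the Anxa5 difference (-0.0495). Leaving out replicate 3 turned Anxa1 in Igfbp2-high cells (-0.036, up to 0.21 without replicate 2) and S100a6 (-0.079) and S100a10 (-0.085, up to 0.19 without replicate 1) in Igfbp2-low cells, and leaving out replicate 1 the Anxa5 difference (-0.082, against 0.13 without replicate 2). Thinning turned Anxa1 in Igfbp2-low cells (0.22) and the S100a10 difference (-0.16), and RLE factors (-0.037) and DESeq2 (-0.039) the Anxa5 difference. Of these, S100a10 among cycling cells and Anxa5 between cycling and non-cycling cells were past the threshold in the values first given, and the causes were not tested. The Igfbp2-low cycling class, with 286 cells, limits every value that uses it.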
